A study of Rattus norvegicus with 8 samples.

Results

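The 9 genes described here mark peritubular myoid cells and other stromal cells of the testis. They were taken by name, as a list chosen with earlier results of these data known. Acta2, Myh11, Tagln, Cnn1 and Des belong to the contractile apparatus, and Dcn, Lum, Fn1 and Thbs1 to the extracellular matrix. All 9 were among the 16764 gene symbols of the count table. The filter on low counts was passed by 8 of them, the exception being Lum, and by 12210 genes in all.

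Peritubular myoid cells are flat contractile cells that surround the seminiferous tubule. Like smooth muscle, they contain smooth muscle actin and myosin with their regulators, and with Sertoli cells they lay down the basement membrane of the tubule. Fibroblast-like stromal cells between the tubules secrete collagens and small leucine-rich proteoglycans such as decorin and lumican. Germ cells carry none of these features as a defining trait, so that these genes are commonly used to look for somatic cells in germ cell preparations.

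RNA was sequenced from Brown Norway rat cells in 3 groups of 2 libraries. The undifferentiated spermatogonia (USg) were a spermatogonial stem cell line expanded in SG medium, with 0 h in SD medium. For differentiating spermatogonia (DSg), replicate cultures of the line had spent 7 days on laminin, of which 120 h were in SD medium, a medium with all-trans-retinoic acid and neuregulin-1. The third group (Spc) was a primary culture of testis germ cells that did not bind laminin, negatively selected on plastic, collagen-I and laminin, kept for 2.5 days in a 1:1 mixture of DMEM and Ham's F12 with 10% fetal bovine serum, and labelled as enriched for primary spermatocytes. Spc therefore differed from the line in stage, source, selection, substrate and serum at the same time, and these cannot be told apart. USg and DSg come from a single line, and the protocol places the USg extraction before plating on laminin whereas the titles of USg and DSg carry the same time point, so that matching for time is not settled. The labels do not say whether the Spc libraries came from separate animals, and p-values measure only the spread between these libraries.

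Total counts ranged from 2657291 to 5697165 per library, so that 1 count was worth 0.178 to 0.404 CPM, the unit of all levels below (counts relative to library size, scaled with TMM factors). Ribosomal RNA genes took 7.81% of the counts in USg 1 and 12.4% in DSg 1, and at most 0.735% in the other 4. Of 1045 olfactory receptor genes, which serve here as a measure of low-level background, 96.7% had a count in DSg 2 against 23.3% to 64.1% in the other libraries. Spermatocyte markers summed to 9224 and 10040 CPM in Spc against 570.3 to 1283 in the line, and 12 of 12 were higher in Spc than in USg (9 of 9 that pass the filter on low counts in USg and DSg alone). CPM values are not divided by transcript length, so levels are compared between libraries and not between genes.

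Promoters of smooth muscle genes are known for the CArG box, an A- and T-rich core flanked by pairs of C and G, which serum response factor binds. RefSeq windows of the 250 bases before the start site were found for 5 of the 9 members, namely Acta2, Cnn1, Des, Lum and Thbs1. An exact CArG box was in none of the 5, and in 1.5% of 33469 windows of that length. The pattern with 1 base different, a search added after the exact result was seen, was in the windows of Acta2 and Thbs1 and in 17.7% of all windows. The window of Acta2 (GRCr8 chr1:241172504-241172753, minus strand) held it at 134 to 125 and at 84 to 75 bases before the start, and 2.69% of all windows held 2 or more. The window of Thbs1 (GRCr8 chr3:125510000-125510249, plus strand) held it at 32 to 23 bases before the start. These 2 windows, the only ones of the 5 with a match, are shown 5′ to 3′ and with the matches in capitals.
Acta2: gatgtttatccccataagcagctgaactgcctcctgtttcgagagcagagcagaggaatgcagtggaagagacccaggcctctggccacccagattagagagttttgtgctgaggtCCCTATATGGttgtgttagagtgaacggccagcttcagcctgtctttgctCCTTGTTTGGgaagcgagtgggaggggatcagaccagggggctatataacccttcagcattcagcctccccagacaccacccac
Thbs1: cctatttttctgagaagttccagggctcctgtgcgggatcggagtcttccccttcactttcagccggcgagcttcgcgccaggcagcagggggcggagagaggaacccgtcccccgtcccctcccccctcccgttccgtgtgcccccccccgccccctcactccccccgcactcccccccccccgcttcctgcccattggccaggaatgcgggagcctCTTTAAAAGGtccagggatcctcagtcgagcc
The pattern reads the same on both strands and such matches are letters in a window, not measured binding.

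The contractile genes were low in the line and higher in Spc. For all 5 both Spc libraries lay above the 4 of the line, as they did for 28% of all genes tested, and of all genes 17.9% were called higher in Spc than in USg and 14.8% than in DSg. Acta2, which encodes smooth muscle alpha-actin, was at 8.87 and 2.49 CPM in the USg libraries, replicate 1 first here and below, at 7.27 and 6.73 in DSg, and at 42.6 and 62.3 in Spc. The lower Spc library was 4.80 times the highest library of the line. Myh11, the smooth muscle myosin heavy chain, was at 16.2 and 31.5 CPM in USg, 23.8 and 31.5 in DSg, and 157 and 179 in Spc. It thus had the same order as Acta2, with USg and DSg overlapping. Tagln, the actin-binding protein transgelin, was at 0.772 (2 counts) and 2.31 CPM in USg, 2.83 and 3.50 in DSg, and 73.1 and 65.3 in Spc. In the line it rested on at most 13 counts per library.

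Cnn1, calponin 1, which binds actin and slows its interaction with myosin, was at 5.40 and 7.30 CPM in USg, 2.83 and 2.96 in DSg, and 20.5 and 26.3 in Spc. It was the contractile gene with the smallest gap, the lower Spc library being 2.81 times the highest of the line. Des, the muscle intermediate filament desmin, was at 10.8 and 14.96 CPM in USg, 9.29 and 7.81 in DSg, and 169 and 158 in Spc. Its lower Spc library was 10.6 times the highest of the line. Summed over the 5 genes, the level was 42.1 to 58.6 CPM in the 4 libraries of the line, and 462 and 490.3 in Spc.

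**Figure D1:**
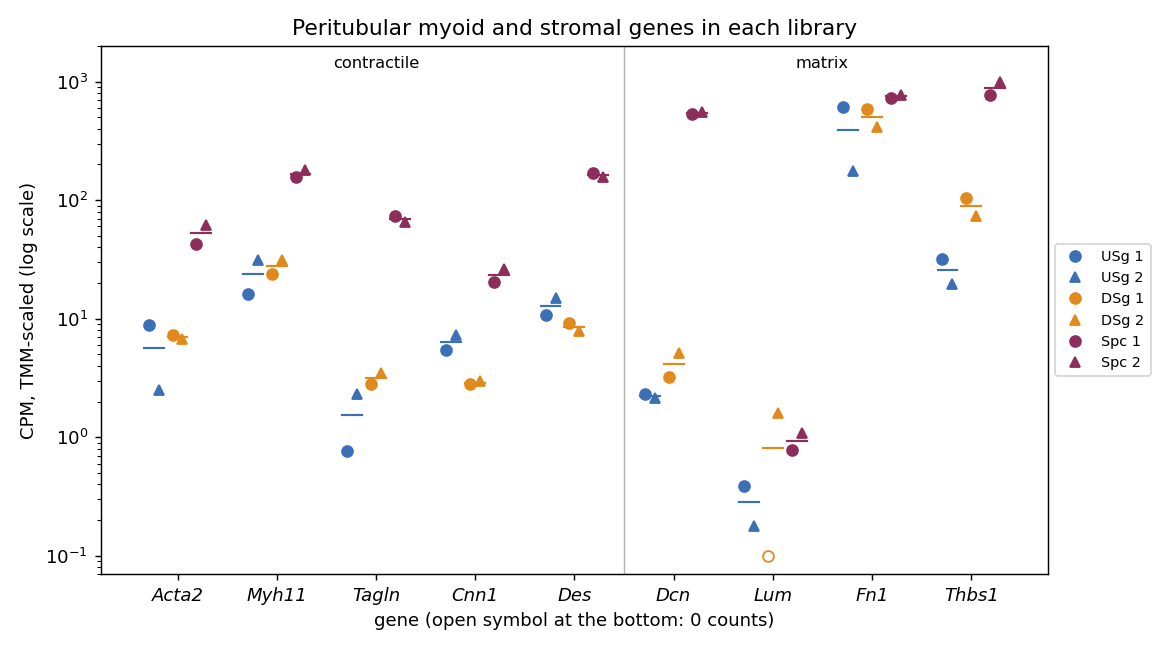
Level of each of the 9 genes in each library, in TMM-scaled CPM on a log axis. Circles are replicate 1, triangles replicate 2 and short bars the mean of 2 libraries, and an open symbol at the bottom marks 0 counts. For 7 genes the lower Spc library is from 2.81 times (Cnn1) to 105 times (Dcn) the highest library of the line, for Fn1 it is 1.19 times, and for Lum the libraries overlap.

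Against USg, all 5 contractile genes were higher in Spc by the quasi-likelihood test of edgeR. Tagln had passed the filter on low counts through Spc only, whereas the other 4 pass it in USg and DSg alone. The log2 fold change was 5.31 ± 0.51 (SE) for Tagln (adjusted p = 2.44e-04), 3.65 ± 0.35 for Des (2.53e-04), 3.30 ± 0.58 for Acta2 (0.00292), 2.79 ± 0.40 for Myh11 (0.00118) and 1.86 ± 0.44 for Cnn1 (0.0122). Against DSg, all 5 were again higher in Spc, at 4.42 ± 0.48 for Tagln (5.19e-04), 4.26 ± 0.37 for Des (2.55e-04), 3.00 ± 0.49 for Cnn1 (0.00309), 2.90 ± 0.57 for Acta2 (0.00661) and 2.59 ± 0.40 for Myh11 (0.00237). USg and DSg are each compared with the same Spc libraries, so these 2 comparisons are not independent. Of these calls, that of Cnn1 against USg was lost without Spc 1 (2.02, adjusted p = 0.0575) or Spc 2 (1.68, 0.168), and that of Acta2 against DSg without DSg 2 (2.84, 0.0614). In bulk RNA, a change in the number of cells of a type and a change in RNA per cell cannot be told apart.

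Dcn, which encodes decorin, a collagen-binding proteoglycan, had the largest difference of the 9 genes. It was at 2.32 and 2.14 CPM in USg, 3.23 and 5.12 in DSg, and 538 and 558 in Spc, that is 6 to 19 counts per library of the line against 2729 and 2561. Its mean was 2.23 ± 0.126 CPM in USg, 4.17 ± 1.33 in DSg and 548 ± 14.0 in Spc (SD, n = 2). The log2 fold change was 7.94 ± 0.42 for Spc against USg (edgeR, adjusted p = 8.74e-05) and 6.99 ± 0.40 for Spc against DSg (1.02e-04). Like Tagln, Dcn had passed the filter on low counts through Spc only. Dcn was called in both comparisons under all 17 alternative settings, with log2 fold changes of 7.88 to 7.97 and of 6.76 to 7.39.

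Lum, which encodes lumican, a proteoglycan of the same family, did not follow Dcn. It had 1 count in each USg library (0.386 and 0.178 CPM), 0 and 6 counts in DSg (0 and 1.62 CPM), and 4 and 5 counts in Spc (0.788 and 1.09 CPM). The highest value was in DSg 2, the library with the most olfactory receptor genes detected, and whether these are linked was not tested. Summed over the 2 libraries of each group, the level in Spc was 3.82 times that in USg (exact binomial 95% interval 0.791 to 36.3) and 0.960 times that in DSg (0.305 to 3.28), and the level in DSg was 3.98 times that in USg (0.712 to 40.3). These intervals cover counting error only and all include 1, so that no difference in Lum was detectable at this depth.

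Thbs1, which encodes thrombospondin 1, a secreted glycoprotein that can activate latent TGF-beta, was at 31.6 and 19.8 CPM in USg, 105 and 73.0 in DSg, and 766 and 1001 in Spc. The 3 groups did not overlap, with USg lowest, DSg between and Spc highest. The log2 fold change was 5.12 ± 0.41 for Spc against USg (edgeR, adjusted p = 1.35e-04) and 3.32 ± 0.38 for Spc against DSg (6.19e-04). For DSg against USg it was 1.80 ± 0.37 (0.0437), which makes Thbs1 the only member called within the line. This last call depended on single libraries: it was lost without USg 2 (1.44, adjusted p = 0.143), DSg 1 (1.34, 0.136) or DSg 2 (2.04, 0.191), and was also lost in a fit of only the 4 USg and DSg libraries (1.82, 0.117).

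Fn1, which encodes fibronectin, the matrix protein that integrins bind, was at 608 and 177 CPM in USg, 590 and 410.4 in DSg, and 724 and 776 in Spc. The Spc libraries were the highest, the lower of them being 1.19 times the highest library of the line. In USg the level of replicate 1 was 3.45 times that of replicate 2. The log2 fold change was 0.94 ± 0.51 for Spc against USg (edgeR, adjusted p = 0.186), 0.59 ± 0.51 for Spc against DSg (0.421) and 0.35 ± 0.51 for DSg against USg (0.746). Without USg 1 the first of these became 2.04 with an adjusted p of 0.00379, with a replicate block it was 1.16 (0.0475), and without both USg 1 and DSg 1 it was 2.06 (1.53e-07). In the latter fit the difference between Spc and DSg was also called (0.99, 4.70e-04), though there the spread of the single USg and DSg libraries is taken from Spc alone.

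Some other stromal genes moved with Fn1 between the USg replicates, and others did not. Vim, the mesenchymal intermediate filament vimentin, was at 453 and 55.2 CPM in USg and at 279 and 41.2 in DSg. Bgn, biglycan, was at 122 and 16.9 in USg and at 53.7 and 29.6 in DSg. Timp2, an inhibitor of metalloproteinases, was at 104 and 10.7 in USg and at 59.4 and 11.3 in DSg. On a scale of log2(CPM + 1), 11 of 34 stromal matrix genes (32.4%) were at least 2-fold higher in USg 1 than in USg 2, against 10.4% of all genes tested. In the other direction they were 4 (11.8%), against 13.9%. Vim and Bgn belong to the list of family relatives, which leaned the other way. Of its 21 tested genes, 2 (9.52%) were at least 2-fold higher in USg 1 and 5 (23.8%) in USg 2. Of 12 spermatocyte markers, 5 (41.7%) were at least 2-fold higher in USg 1. Contractile genes did not share this order, as Acta2 was higher in USg 1 while the other 4 were higher in USg 2. USg 1 and DSg 1 are also the libraries with the most ribosomal RNA, and its part in these differences was not tested.

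Within the line, none of the 5 contractile genes was called between DSg and USg by edgeR, DESeq2 or limma-voom, and 1 of them, Cnn1, had an unadjusted p under 0.05. The log2 fold changes were 0.88 ± 0.56 for Tagln (adjusted p = 0.420), 0.40 ± 0.60 for Acta2 (0.753), 0.20 ± 0.39 for Myh11 (0.820), -0.61 ± 0.36 for Des (0.381) and -1.14 ± 0.50 for Cnn1 (0.258). The libraries of Cnn1, Des and Tagln did not overlap between DSg and USg, with Cnn1 and Des lower in DSg and Tagln higher, but such a separation was common: it held for 21.2% of all genes in the higher and 21.1% in the lower direction, against 2.48% called. Dcn, at 0.94 ± 0.43 (0.275), was likewise not called, although its DSg libraries both lay above USg. With USg 1 and DSg 1 left out together, 5 members were called: Acta2 (1.28), Fn1 (1.07) and Thbs1 (1.74) as higher in DSg and Cnn1 (-1.44) and Des (-1.08) as lower, but so were 6327 of all genes, against 303 with all libraries.

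Counted over the 8 members tested, 1 was higher and 0 were lower in DSg than in USg, beside 2.48% called of the 12210 genes (0.565% higher and 1.92% lower). In Spc against USg 7 were higher and 0 lower, beside 34.5% of all genes (17.9% and 16.6%). In Spc against DSg 7 were higher and 0 lower, beside 26.5% (14.8% and 11.7%). The split of all genes moved with the scaling: for Spc against DSg it was 1806 higher and 1433 lower with TMM and 1486 and 1925 with upper quartile scaling, and for DSg against USg 69 and 234 against 82 and 174. The counts of members were the same under both. The direction with 0 calls also had 0 in DESeq2 and limma-voom, and the only member with an unadjusted p under 0.05 in it was Cnn1 in DSg against USg. The median log2 fold change of the 8 was 0.38, 3.48 and 3.16 in the 3 comparisons, and that of all genes tested was 0.01, -0.04 and -0.03. Tagln and Dcn passed the filter on low counts through Spc only. Of the 6 that pass it on USg and DSg alone, 5 were called higher in each Spc comparison and the exception was Fn1. Without DSg 1, or without DSg 2, 0 of all genes were called between DSg and USg by edgeR, although 3439 and 1823 had an unadjusted p under 0.05, and DESeq2 and limma-voom, run on all 6 libraries, called 781 and 287.

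**Figure D2:**
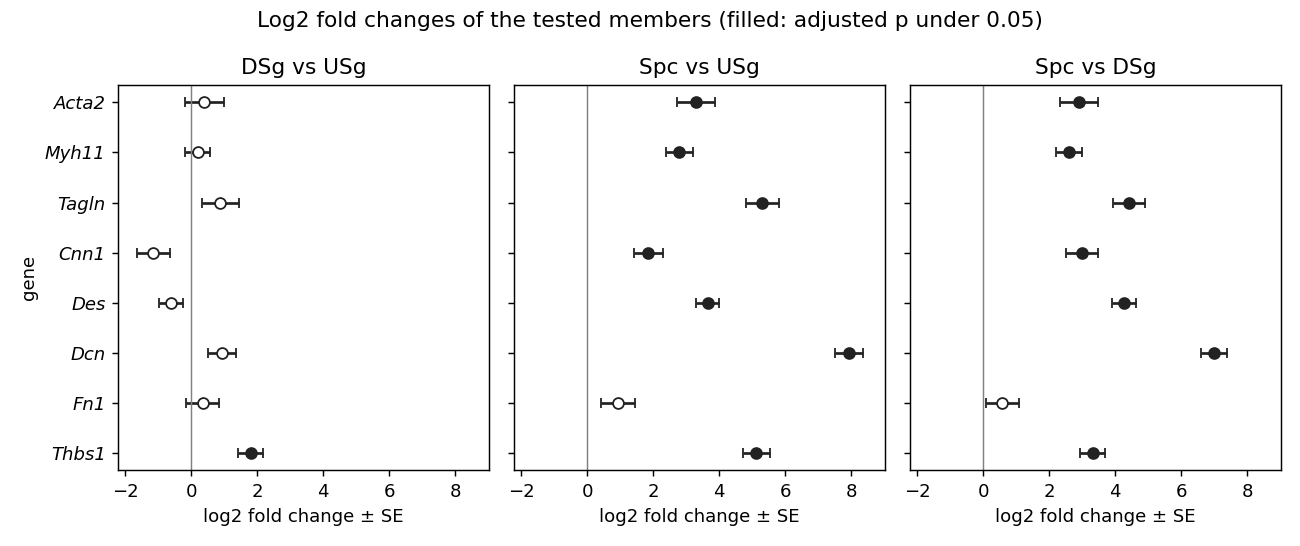
Log2 fold change with its standard error for the 8 tested genes in each of the 3 comparisons, from 1 edgeR fit of 6 libraries. Filled points have an adjusted p under 0.05. In DSg vs USg only Thbs1 is filled (1.80), and in both Spc comparisons every gene but Fn1 is, with Dcn farthest to the right (7.94 and 6.99).

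The rest of the smooth muscle apparatus was mixed. Calls in this and the later lists stand beside those of all genes. In Spc against USg 17.9% of all genes were higher and 16.6% lower, and against DSg 14.8% and 11.7%. Of 31 tested genes of this list, 13 were higher and 2 lower in Spc than in USg, with a median log2 fold change of 0.67, and 12 were higher and 1 lower in Spc than in DSg, with a median of 1.00. Of the 25 that pass the filter on low counts in USg and DSg alone, 10 and 9 were higher in the 2 comparisons. Cald1, caldesmon, an actin-binding regulator of contraction, was at 39.7 and 20.3 CPM in USg, 39.6 and 19.4 in DSg, and 631 and 632 in Spc. Its libraries in Spc lay far above the line, with a log2 fold change of 4.41 ± 0.48 against USg (edgeR, adjusted p = 3.56e-04). Mustn1, a small nuclear protein of the musculoskeletal system, had 0, 8, 1 and 11 counts in the line and 748 and 618 in Spc. Its log2 fold change against USg was 7.22 ± 0.80 (3.88e-04), and it passed the filter through Spc only. Going the other way, Fhl1, a LIM domain protein of muscle, was at 222 to 277 CPM in the line and at 55.6 and 53.1 in Spc (-2.18 ± 0.30, 9.60e-04), and the crosslinker Flnc was lower in Spc than in USg (-2.23 ± 0.34, 0.00152).

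In DSg against USg, 0 genes of the smooth muscle list were higher and 3 lower by edgeR, namely Myl9, Flnc and Flna. By unadjusted p under 0.05 they were 3 and 6, and DESeq2 and limma-voom called 0 higher and 3 and 2 lower. Myl9, the regulatory light chain of smooth muscle myosin, was at 14.7 and 25.8 CPM in USg, 3.23 and 3.50 in DSg, and 131 and 159 in Spc. The order was thus DSg, USg, Spc without overlap, unlike that of Thbs1. Its log2 fold change was -2.59 ± 0.44 in DSg against USg (edgeR, adjusted p = 0.0250) and 5.41 ± 0.45 in Spc against DSg (2.55e-04). Without DSg 1 or DSg 2 the first value was -2.74 and -2.65 and was not called. Myl9 was also not called in DSg against USg by limma-voom (-2.54, adjusted p = 0.0795). The same held for the edgeR fit of only the 4 USg and DSg libraries (-2.54, 0.112). The count of 3 became 8 without USg 1, 1 without USg 2, and 0 without DSg 1 or DSg 2.

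Smooth muscle genes are activated by serum response factor with its cofactor myocardin, and YAP and TEAD proteins act on matrix genes. Of 17 tested regulators and targets, 4 were higher and 2 lower in Spc than in USg, and 5 higher and 3 lower in Spc than in DSg, which became 3 and 1 without DSg 1, 4 and 0 without Spc 1, and 3 and 0 without Spc 2. Cyr61, a matricellular target of YAP, was at 7.72 and 4.81 CPM in USg, 7.68 and 9.42 in DSg, and 246 and 284 in Spc. Its log2 fold change in Spc was 5.44 ± 0.40 against USg (edgeR, adjusted p = 1.11e-04) and 4.94 ± 0.39 against DSg (2.06e-04). The regulator Tead2 was lower in Spc than in USg (-2.04 ± 0.40, 0.00483).

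Ctgf, a matricellular protein and YAP target, was the only gene of this list called between DSg and USg, and like Thbs1 it was higher in DSg. It was at 1.16 and 3.03 CPM in USg, 20.2 and 26.9 in DSg, and 61.7 and 54.0 in Spc, with no overlap between the groups. The log2 fold change was 3.35 ± 0.48 for DSg against USg (edgeR, adjusted p = 0.0140) and 4.64 ± 0.49 for Spc against USg (3.15e-04). The first was not called without DSg 1 (3.34) or DSg 2 (3.13). It was also lost in the fit of only the 4 USg and DSg libraries (3.42, adjusted p = 0.0561). Srf and Myocd themselves were not called in Spc against USg: Srf was at 30.5 and 102 CPM in USg and 86.1 and 94.9 in Spc (0.44 ± 0.53, 0.551), with Myocd at 1.16 and 1.25 in USg and 4.34 and 5.66 in Spc (2.02 ± 1.02, 0.155). For the list, 1 gene was called in DSg against USg, and this became 5 without USg 1, 2 without USg 2 and 0 without DSg 1 or DSg 2.

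Family relatives of the members did not move as a block, and their calls in Spc against USg were near the shares of all genes (17.9% higher and 16.6% lower). Of 21 tested, 5 were higher and 3 lower in Spc than in USg, with a median log2 fold change of -0.28, and these counts became 7 and 6 without USg 1, 3 and 1 without Spc 1, and 4 and 1 with Spc 2 left out. Among proteoglycans related to Dcn, Prelp was at 0.386 and 1.07 CPM in USg, 0.404 and 3.77 in DSg and 63.3 and 80.6 in Spc, a log2 fold change of 6.39 ± 0.75 against USg (edgeR, adjusted p = 4.66e-04), and like Mustn1 it passed the filter through Spc only. Fmod, fibromodulin, was at 122 and 255 CPM in USg and 101 and 89.0 in Spc and was not called (-0.99 ± 0.39, 0.0786). Among thrombospondins, Thbs2 was opposite to Thbs1, at 12.3 and 11.6 CPM in USg and 2.37 and 5.01 in Spc (-1.70 ± 0.51, 0.0311), a call lost without Spc 1 (-1.26, 0.307).

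The non-muscle relatives gave other orders again. Tagln2, the relative of Tagln found outside muscle, was at 108 and 123 CPM in USg, 36.4 and 31.0 in DSg, and 365 and 352 in Spc. DSg was lowest, with a log2 fold change of -1.79 ± 0.30 against USg (edgeR, adjusted p = 0.0245). That call was lost without DSg 1 (-2.09) or DSg 2 (-1.67). It was also lost in the fit of only the 4 USg and DSg libraries (-1.75, 0.0959). In Spc against DSg the log2 fold change of Tagln2 was 3.42 ± 0.31 (2.85e-04). The non-muscle myosin gene Myh10 was at 93.4 and 85.3 CPM in USg and at 263 and 270 in Spc, a smaller difference (1.58 ± 0.28, 0.00337) than that of Myh11, although the difference between them was not tested. Actb, cytoplasmic actin, was at 1262 and 2558 CPM in USg and 1639 and 1254 in Spc and was not called (-0.40 ± 0.41, 0.480).

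Stromal matrix genes were often higher in Spc. Of 34 tested, 15 were higher and 3 lower in Spc than in USg, with a median log2 fold change of 1.17, and 16 were higher and 2 lower than in DSg, with a median of 1.70. With any single library left out, the calls in both directions numbered 15 to 20 against USg and 12 to 22 against DSg. The lower calls against DSg were 1 instead of 2 without DSg 1, DSg 2, Spc 1 or Spc 2, and against USg 2 instead of 3 without Spc 2. Mgp, matrix Gla protein, was at 10.0 and 8.37 CPM in USg, 10.1 and 4.58 in DSg, and 423 and 377 in Spc. Col5a2, a chain of collagen V, was at 16.6 and 9.44 in USg, 38.4 and 40.4 in DSg, and 621 and 559 in Spc. Lox, which crosslinks collagen, was at 2.70 and 1.25 in USg, 5.25 and 5.65 in DSg, and 90.3 and 61.6 in Spc. All 3 had Spc far above the line, with log2 fold changes against USg of 5.45 ± 0.44, 5.53 ± 0.40 and 5.37 ± 0.51 (edgeR, adjusted p = 1.37e-04, 1.09e-04 and 2.34e-04).

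Fibrillar collagens differed among themselves. Col3a1 was at 75.6 and 21.0 CPM in USg, 37.2 and 38.8 in DSg and 1328 and 1142 in Spc, a log2 fold change of 5.02 ± 0.59 in Spc against DSg (edgeR, adjusted p = 7.24e-04). Col1a1, the main chain of collagen I, was at 312 and 115 CPM in USg, 184 and 123 in DSg, and 142 and 172 in Spc. All 3 groups overlapped, and in Spc against USg its log2 fold change was -0.44 ± 0.46 (0.484). Timp1, an inhibitor of metalloproteinases, was at 84.9 and 111 CPM in USg, 10.9 and 14.5 in DSg, and 2030 and 2579 in Spc. It followed the order of Myl9, with -2.93 ± 0.36 in DSg against USg (0.00774) and 7.49 ± 0.43 in Spc against DSg (1.02e-04). Without DSg 1 or DSg 2 the first value was -2.94 and -3.16, with adjusted p of 0.108 and 0.145.

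Within the line, Timp1 and Efemp2 were the 2 stromal matrix genes called between DSg and USg, both lower in DSg, and 0 were higher. By unadjusted p under 0.05, 2 were higher and 5 lower. With DESeq2 these numbers were 1 and 4, and with limma-voom 0 and 2. Without USg 1 edgeR called 4 higher and 4 lower, and without DSg 1 or DSg 2 it called 0.

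Basement membrane genes, which encode the sheet between the tubule and its myoid cells, went both ways. Of 10 tested, 3 were higher and 5 lower in Spc than in USg, and 1 and 4 without Spc 2. Col4a1, a collagen IV chain, was at 142 and 151 CPM in USg, 27.5 and 34.7 in DSg, and 652 and 595 in Spc. It was again lowest in DSg and highest in Spc, with log2 fold changes of -2.23 ± 0.30 in DSg against USg (edgeR, adjusted p = 0.0123) and 2.09 ± 0.29 in Spc against USg (0.00105). Without DSg 1 or DSg 2 the first was -2.27 and -2.41 (0.108 and 0.145). Nid2, nidogen 2, was highest in USg, at 1435 and 1320 CPM, against 531 and 230.5 in DSg and 105 and 98.4 in Spc (-3.76 ± 0.44 for Spc against USg, 4.69e-04). Lama1, a laminin chain, was at 94.5 and 82.8 in USg, 24.2 and 33.9 in DSg, and 13.4 and 12.8 in Spc (-2.75 ± 0.35 for Spc against USg, 7.14e-04).

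Receptors and ligands that act with fibronectin, thrombospondin and decorin also went both ways, with 10 of 23 higher and 6 lower in Spc than in USg. Tgm2, the transglutaminase that binds fibronectin, was at 8.49 and 9.79 CPM in USg, 9.70 and 12.4 in DSg, and 1176 and 1037 in Spc. Spc lay far above the line, with a log2 fold change of 6.90 ± 0.38 against USg (edgeR, adjusted p = 8.74e-05). Of the TGF-beta ligands, which decorin binds, Tgfb2 was at 3.09 and 1.25 CPM in USg and 57.4 and 58.1 in Spc (4.85 ± 0.50, 3.01e-04), and Tgfb1 was the reverse, at 453 and 352 in USg and 25.6 and 25.0 in Spc (-3.99 ± 0.50, 6.48e-04). Of the integrin chains, Itga5, which pairs with Itgb1 as the main fibronectin receptor, was at 42.0 and 40.9 CPM in DSg and 313 and 278 in Spc (2.83 ± 0.33 for Spc against DSg, 6.78e-04). Itgb1 itself overlapped between all groups (0.54 ± 0.45 for Spc against USg, 0.373), and Itgb5 was lower in Spc than in USg (-3.08 ± 0.33, 3.28e-04).

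**Figure D3:**
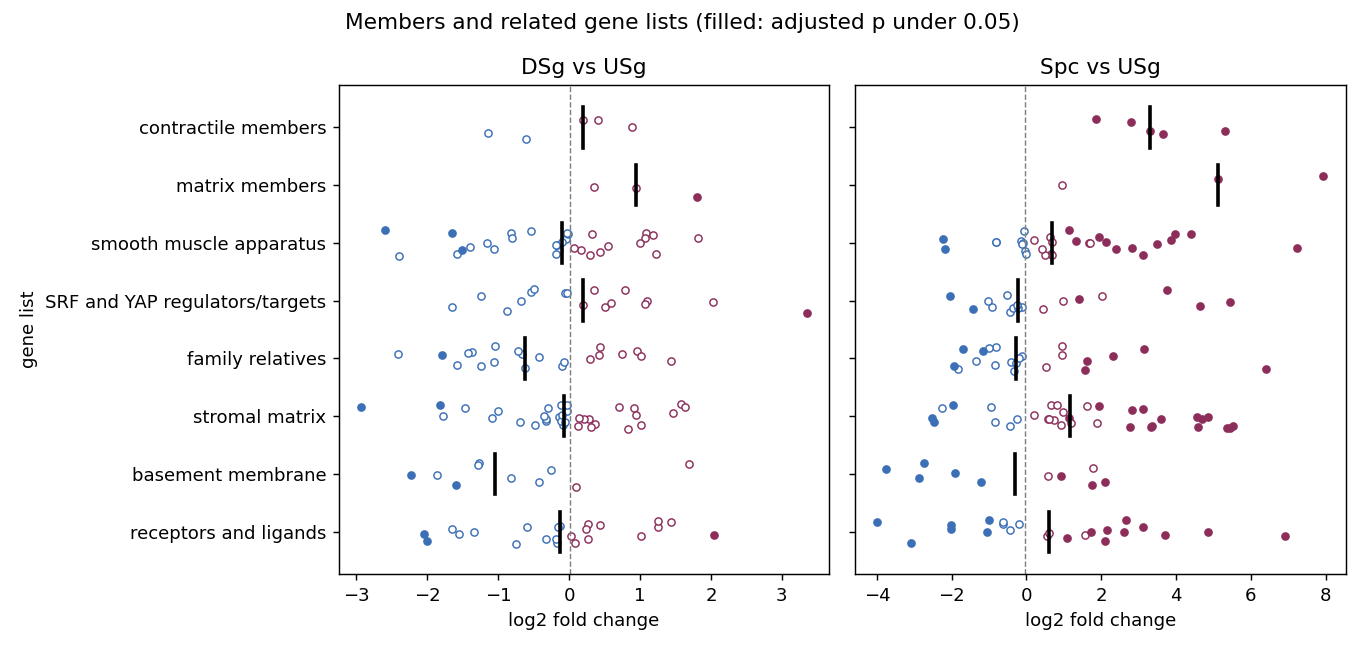
Log2 fold changes of the members and of genes in 6 related lists, for DSg vs USg and Spc vs USg. Each point is a tested gene, filled where its adjusted p is under 0.05, the thick bar is the list's median and the dashed line the median of all genes tested. In Spc vs USg the medians of the contractile members (3.30) and matrix members (5.12) lie to the right of those of the smooth muscle apparatus (0.67) and stromal matrix (1.17). The first 2 medians cover only 5 and 3 tested genes, of which Tagln and Dcn passed the filter on low counts through Spc only. Members and lists were chosen with earlier results of these data known, so their order is a description and not a test.

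Markers of peritubular, interstitial and perivascular cells that are not among the 9 were split. Of 16 tested, 8 were higher and 3 lower in Spc than in USg, with a median log2 fold change of 1.78. The summed level of the list was 807 and 977 CPM in USg, 369 and 360 in DSg, and 790.3 and 732 in Spc. Mcam, which was lower in Spc, made up most of the sum in USg. Of the 12 that pass the filter in USg and DSg alone 4 were higher, so that the other 4 higher calls, Tcf21 among them, are of genes that entered through Spc. Tcf21, a transcription factor of testis mesenchyme, had 0 and 1 counts in USg, 1 and 14 in DSg, and 78 and 36 in Spc (6.28 ± 1.26 against USg, edgeR adjusted p = 0.00554). Pdgfra, a growth factor receptor of mesenchymal cells, was at 47.7 and 28.0 CPM in DSg and 415 and 393 in Spc (3.42 ± 0.38 for Spc against DSg, 5.53e-04). Opposite to these, Mcam, an adhesion molecule of pericytes that was abundant in the line, was at 495 and 729 CPM in USg, 163 and 126 in DSg, and 57.7 and 54.4 in Spc (-3.45 ± 0.34 for Spc against USg, 2.75e-04). Notch3, a receptor of mural cells, was lower in Spc than in USg as well (-2.63 ± 0.53, 0.00573).

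Some markers of other somatic cells were higher in Spc too. Of 13 tested Sertoli cell markers 8 were higher and 0 lower in Spc than in USg, with sums of 445 and 501 CPM in USg, 292 and 253 in DSg, and 1602 and 1349 in Spc. Of the 10 that pass the filter in USg and DSg alone, which Gata4 does not, 6 were higher. Gata4, a transcription factor of testis somatic cells, was at 1.93 and 2.67 CPM in USg and 69.8 and 67.7 in Spc (4.84 ± 0.62, edgeR adjusted p = 7.14e-04), and Wt1 was at 3.86 and 2.49 in USg and 53.4 and 46.2 in Spc (4.01 ± 0.64, 0.00188). Leydig cell markers summed to 6.23 to 33.1 CPM in the line and to 273 and 285 in Spc, where Star, at 159 and 169 CPM, and Hsd11b1, at 91.3 and 98.8, made up most of the sum. Of the 5 tested, 3 were higher and 0 lower in Spc than in USg, and all 3 had passed the filter through Spc only. Cyp11a1, the enzyme that starts steroid synthesis, was the 1 that passes it in the line, and it was lower in Spc, at 0.788 and 1.09 CPM, than in DSg, at 6.06 and 5.92 (-2.64 ± 0.78, 0.0356). With any single library left out that call was lost, with adjusted p of 0.0518 to 0.431. The defining Leydig markers Cyp17a1, Insl3 and Lhcgr did not exceed 1.18 CPM in either Spc library, and Insl3 was at 0 in Spc 2. Macrophage and leukocyte markers summed to 29.1 to 62.5 CPM in the line and 111 and 134 in Spc, with 6 of 10 higher than in USg, which became 2 without USg 2, 3 without Spc 1 and 3 without Spc 2. Only 4 of the 10 pass the filter in USg and DSg alone, and 2 of those were higher. For the Sertoli, Leydig and macrophage lists, the count lower in Spc than in USg was 0 also by unadjusted p under 0.05, DESeq2 and limma-voom.

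Endothelial markers ran the other way, at 376 and 258 CPM in USg, 166 and 201 in DSg, and 91.1 and 110 in Spc, with 1 of 8 higher and 4 lower in Spc than in USg, against 0 and 3 without USg 1 or Spc 2 and 0 and 2 without Spc 1. Striated muscle markers were at 36.3 to 86.4 CPM in the line and 14.8 and 15.02 in Spc, with 0 of 3 tested higher and 1 lower in Spc than in USg by edgeR, by unadjusted p under 0.05, by DESeq2 and by limma-voom. No gene of these lists was at 0 in all 6 libraries. The share of the members' differences that follows these cell types was not tested.

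**Figure D4:**
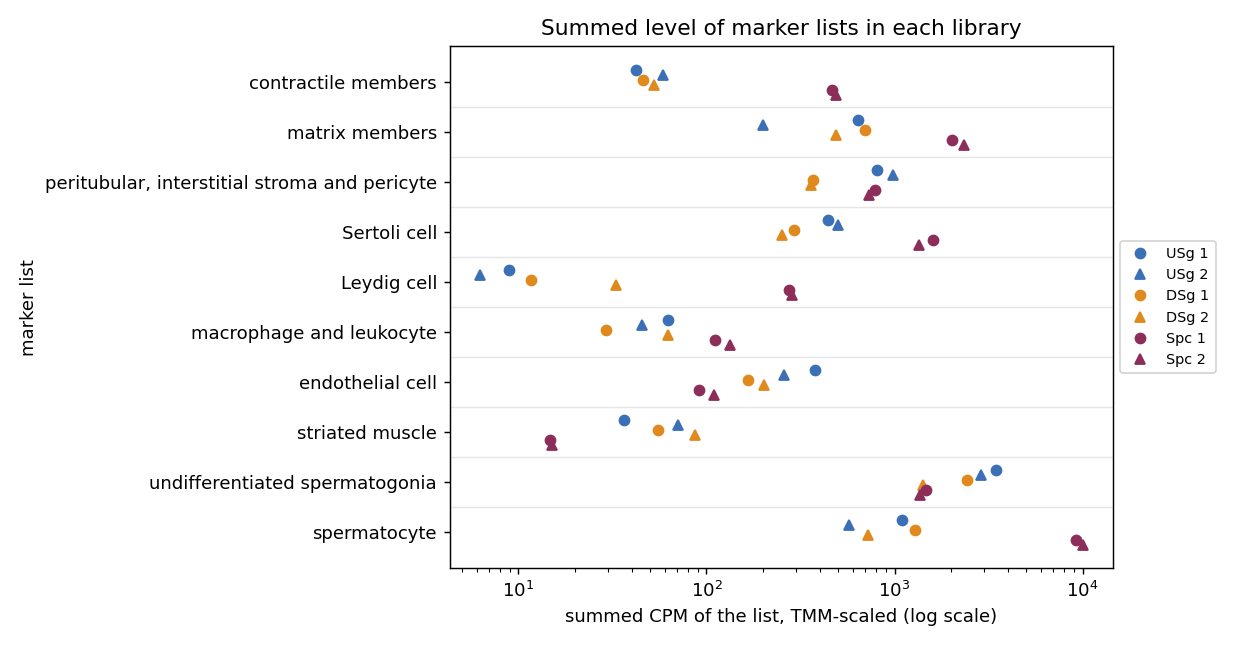
Summed level of the contractile and matrix members and of 8 marker lists in each library, in TMM-scaled CPM on a log axis. Circles are replicate 1 and triangles replicate 2. Contractile and matrix members, Sertoli, Leydig, macrophage and spermatocyte markers are highest in the 2 Spc libraries. Endothelial and striated muscle markers are lowest there. The sum of peritubular and pericyte markers is slightly lower in Spc (790.3 and 732) than in USg (807 and 977). In USg this sum is mostly Mcam, and the list's median log2 fold change in Spc vs USg is 1.78.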

How the data were processed

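The authors deposited 1 table of gene counts for the 6 RNA libraries, and its whole numbers with unequal column totals show that they were not normalized. Per the submitters' processing notes, the tools were STAR 2.5.3a, featureCounts, Subread 1.4.6, Bowtie2 2.2.3, Picard 1.127, HOMER and edgeR 3.2.4, with rn5 and rn6 as builds, all without a stated role. Which build, annotation and strand setting the counts rest on is not given in the sources used here. In RefSeq GRCr8, used for names, neighbours and promoters only, Des, Dcn and Thbs1 each overlap a long non-coding RNA, so their counts may include its reads.

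Counts were scaled with TMM factors and tested, two-sided, with edgeR 4.0.16 (quasi-likelihood F-test, R 4.3.3) in 1 fit of 6 libraries with 3 residual degrees of freedom, on the 12210 genes passing filterByExpr (minimum count 10, minimum total 15). P-values were adjusted over these genes by Benjamini-Hochberg and called under 0.05. Each SE was obtained by dividing the size of the log2 fold change by the square root of its F statistic. The fit was also run on simulated counts, with an outcome not given here. Far fewer genes were changed there than were called in Spc, and only genes above 5 CPM. That run therefore does not test the fit under such a shift or at low counts. The 17 alternatives were 3 other scalings (RLE, upper quartile, total count), 2 other filters (none, 5 CPM in 2 libraries), DESeq2 1.42.0, limma-voom (limma 3.58.1), a fit of the 4 libraries compared, a replicate block, a fit without ribosomal RNA genes, each of the 6 libraries left out, and USg 1 and DSg 1 left out together.

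The members and gene lists were chosen with earlier results of these data known. Besides all members and their family relatives, genes were named by rule: per list and comparison up to 4 called genes with the largest change, at least 5 CPM and no overlap between libraries, and up to 2 that went against the list's direction. Since the rule asks for separate libraries, that the libraries of such a gene do not overlap is part of how it was chosen. Col1a1, Timp2, Itgb1, Srf, Myocd, Cyp17a1, Insl3 and Lhcgr were named after their values were seen. A result that the naming rule selected is not reported here. The 2 libraries of Foxa2 chromatin immunoprecipitation were not analysed here.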

Additional observations from a re-analysis of the deposited data

How the results depend on the processing

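With 2 libraries a group, single libraries weighed most on the comparison within the line. Genes called between DSg and USg numbered 303, and 199 with total-count scaling, 1044 with no filter, 781 with DESeq2, 90 in the fit of 4 libraries, 604 with a replicate block, 6327 without USg 1 and DSg 1 together, and from 0 to 1501 with 1 library left out. Members called there numbered 1, and 0 in the fit of 4 libraries, 5 without USg 1 and DSg 1 together, and from 0 to 1 with 1 library left out (0 without USg 2, DSg 1 or DSg 2). For Spc against USg, 4214 genes became 8246 without that pair and from 2258 to 4411 with 1 library left out, and for Spc against DSg 3239 became 8292 and from 1642 to 4289. The 7 members called in each Spc comparison stayed between 6 and 8. Directions within the line that turned were those of Acta2 (-0.41 without USg 2, within -0.41 to 1.34 over single libraries left out), Myh11 (-0.15 without USg 1 and DSg 1, and -0.32 to 0.71) and Fn1 (-0.33 to 1.39). The other directions of the 8 members tested were kept under the alternatives that gave them a value. Lum was not followed over the alternatives, and Tagln and Dcn did not pass it in the DSg and USg fit of 4 libraries.

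The labels give the groups the same replicate numbers without saying that these pair the libraries. The differences between replicates 1 and 2 correlated at 0.295 for USg and DSg, -0.285 for USg and Spc, and -0.00687 for DSg and Spc. With the replicate block 4523 genes were called for Spc against USg and 3618 for Spc against DSg, and 1, 8 and 7 members in the 3 comparisons. Upper quartile scaling moved the median log2 fold change of all genes from -0.033 to -0.246 for Spc against DSg and from 0.007 to 0.152 for DSg against USg, and total-count scaling to -0.218 and 0.156. Depth limits Lum and, within the line, Tagln and Dcn, which rest on 19 counts or fewer in each USg and DSg library.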

Other observations

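For each member with at least 5 CPM in some group, the gene with the most similar profile over the 6 libraries, by Pearson correlation of log2(CPM + 1) among all genes tested, was Arl6ip5 for Acta2 (0.999), Mdc1 for Myh11 (0.999), Inca1 for Tagln (0.999), Dnal1 for Cnn1 (0.996), Trafd1 for Des (0.9998), LOC100912214 for Dcn (0.9996), Ift20 for Thbs1 (0.999) and Sh3glb1 for Fn1 (0.999). The libraries form a Spc cluster and a cluster of the line, and any gene with that contrast correlates highly.

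In DSg 2, the library in which most olfactory receptor genes had a count, genes of some marker lists were also more often above DSg 1. Of 10 macrophage and leukocyte markers tested, 7 were at least 2-fold higher in DSg 2 than in DSg 1 on the log2(CPM + 1) scale, as were 3 of 5 Leydig cell markers and 5 of 16 peritubular, stromal and pericyte markers, against 15.8% of all genes tested. Germ cell markers lay above that share too, at 27.3% for undifferentiated spermatogonia and 25% for spermatocytes. The smooth muscle apparatus (12.9%) and stromal matrix (11.8%) lay below it. Of the 8 members tested, 0 were at least 2-fold apart between the DSg libraries, in either direction.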
